A study of Mus musculus with 6 samples.

Results

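The genes described here encode plasma proteins of blood clotting, fibrinolysis and complement that are made mainly in liver. They were given as a list of 34 genes and matched by gene symbol to the array annotation, and 32 of the 34 had a probe set with a single symbol among 12393 genes measured in this way. The remaining 2, Cpb2 and C3, are not analysed here. The measured genes fall into 15 for coagulation, 3 for fibrinolysis, 4 for the lectin pathway and 10 for complement. Each gene is represented by its probe set with the highest mean over all 6 arrays.

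Liver RNA came from 6 mice of C57 background, 1 month of age, all labelled as Ppara knockouts, so that the controls also lack this nuclear receptor of fatty acid oxidation genes. In 3 of them, the TFEB-injected group, the liver had been given TFEB, which switches on lysosomal and autophagy genes, by adenovirus. The not-injected group held the other 3 mice, which got no vector. Effects of TFEB, of the vector and of the injection therefore cannot be told apart, and in whole liver fewer cells of a type and less RNA per cell cannot be told apart either.

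Each array is 1 mouse, and its values are RMA-normalised log2 levels that share 1 upper end, 15.20, in every array. Probe sets for Tfeb (7.63, 7.46 and 7.69 in TFEB-injected livers, against 7.52, 7.63 and 7.51 in not-injected livers) and for Ppara (9.08, 9.04 and 9.12, against 8.98, 8.87 and 9.01 in not-injected livers) did not separate at the threshold (adjusted p = 0.777 and 0.149). The labels give neither the species of the TFEB in the vector nor the deleted part of Ppara, so these values check nothing. Hepatocyte markers were present at high levels, with Alb at 14.95, 14.95 and 14.94 in TFEB-injected livers, against 15.02, 15.01 and 15.03 in not-injected livers.

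Hepatocytes secrete most clotting factors and complement components as inactive precursors. In coagulation, cascades of serine proteases end in thrombin, which turns fibrinogen into fibrin, and plasmin later dissolves the clot. Complement is started by antibody, by lectins that bind microbial sugars or by its alternative loop, and all routes lead to C5 cleavage and a membrane pore. Several of these genes also respond to inflammation as part of the acute phase.

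Most coagulation and complement transcripts changed little. Klkb1 (plasma prekallikrein), C4bp (an inhibitor of complement), C6 and C8g (parts of the membrane attack complex) fell, and Hc (complement C5) rose, each under all 13 alternative settings tried. Smaller falls of F7, F12, Proc, Hrg, Vtn and Masp1 passed the threshold but were each lost under some settings. The 3 fibrinogen chains were among the 21 genes that did not pass.

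A gene was called when its limma p-value, adjusted by Benjamini-Hochberg over all 12393 genes, was under 0.05. Of the 32 genes, 10 fell (31.3%) and 1 rose (3.13%), against 7.92% of all genes that fell and 9.99% that rose. All members are bright, the lowest lying at the 78.8th percentile of mean level, and bright genes were called more often. Among the 2623 genes at or above the level of the lowest member, 15.3% fell and 17.7% rose, or 33.0% in either direction. The share of members called in either direction, 34.4%, is thus near that of these 2623 genes. The calls of members lay almost all on the lower side. These 2623 genes are not matched to the members in level, as many members lie well above the lowest, with Fgg at the 99.9th percentile. The levels did not overlap between groups for 13 members with TFEB-injected livers below (40.6%) and for 8 above (25.0%). The shares were 18.9% and 18.2% of all genes, and 29.7% and 31.1% of the 2623 genes. The median log2 change of the members was -0.051, against -0.014 over all genes. It was -0.082, against -0.045 over all genes, after median centring, and -0.019, against -0.0014, after cyclic loess. Without TFEB-injected replicate 1 it was -0.030, against -0.013 over all genes. Median centring of the arrays turned the split over all genes to 1060 higher and 1352 lower, against 1238 higher and 981 lower as deposited, whereas the members gave 1 higher and 11 lower.

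**Figure D1:**
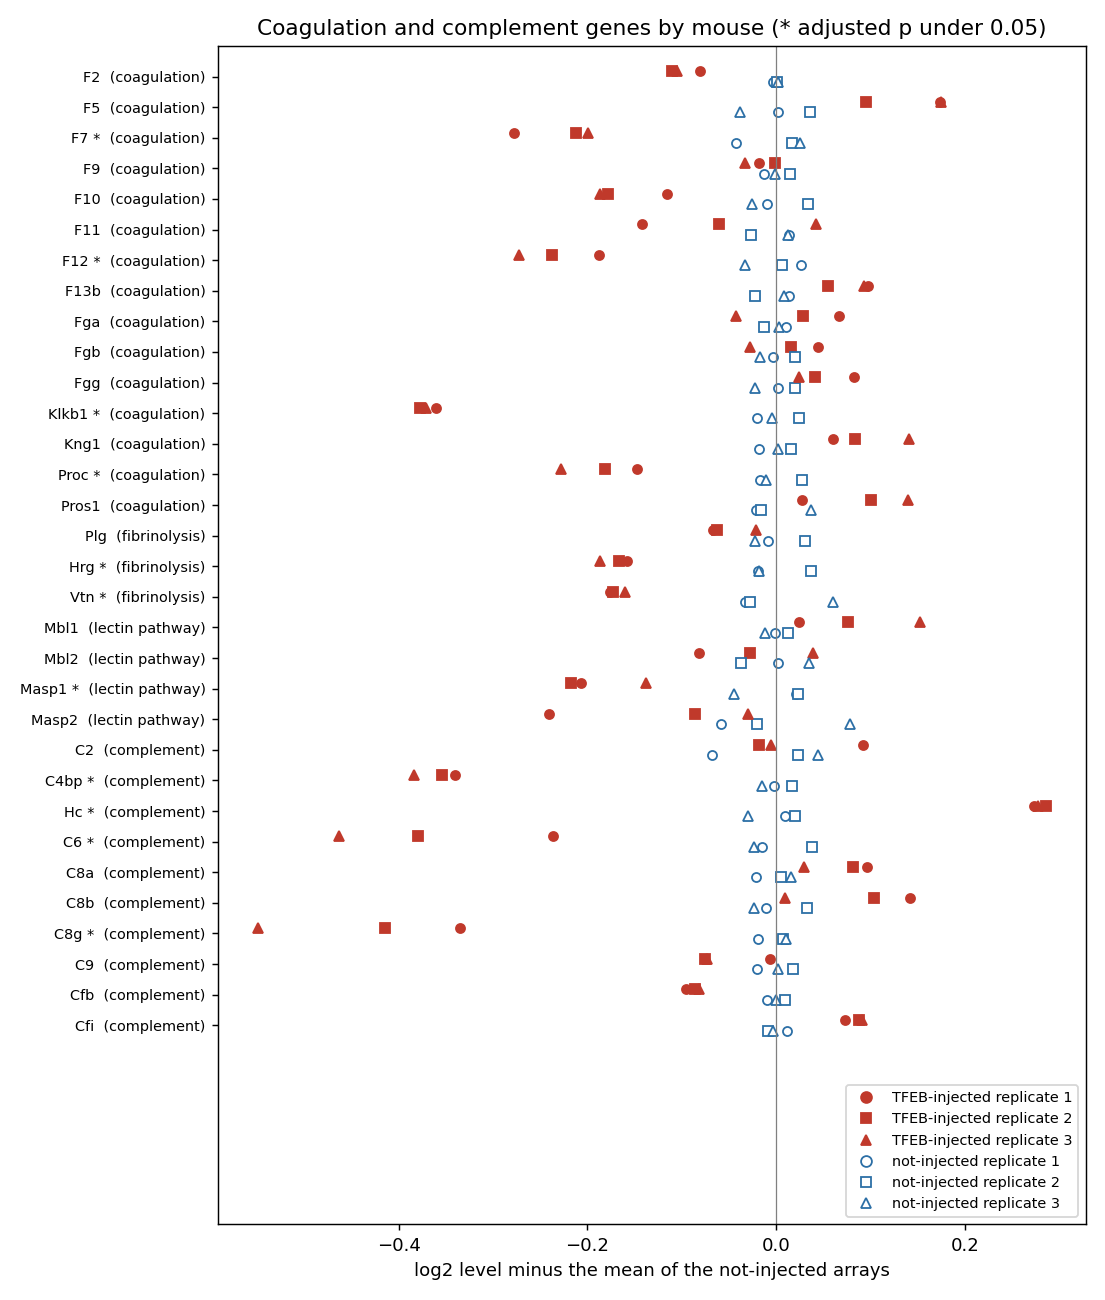
Each row is 1 gene, with its log2 level in each TFEB-injected mouse (filled) and each not-injected mouse (open) minus the mean of the 3 not-injected arrays. By their mean, the filled symbols of C8g, C6, Klkb1 and C4bp lie farthest to the left and those of Hc farthest to the right. Stars mark the 11 called genes.

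**Figure D2:**
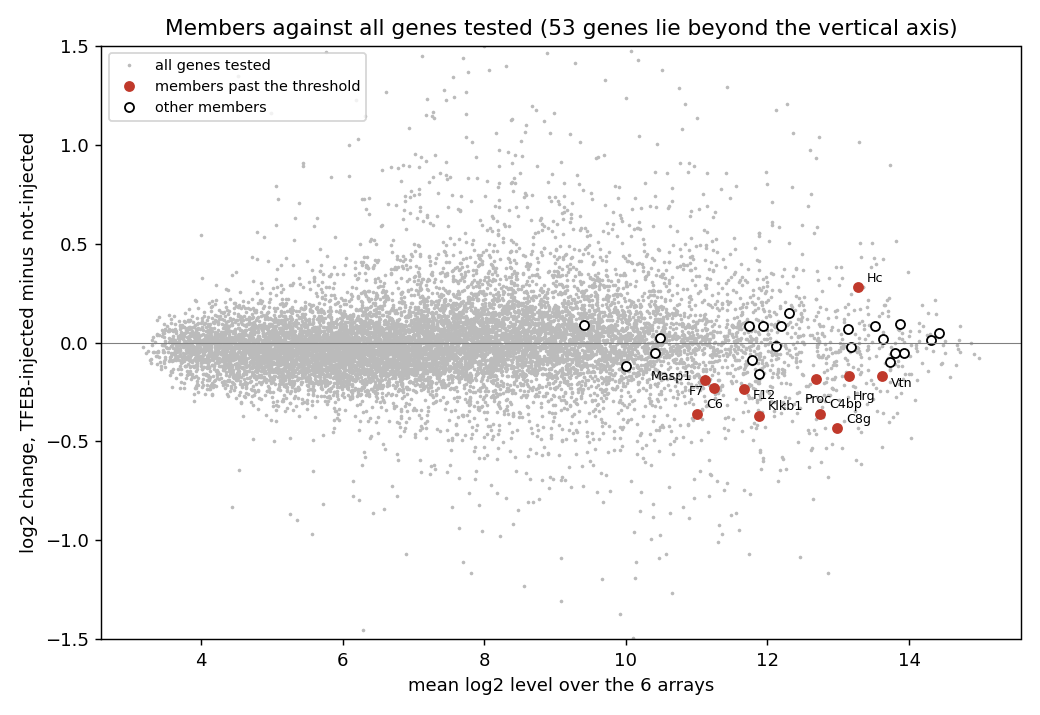
The log2 change of every gene tested is plotted against its mean log2 level over the 6 arrays, with 53 genes beyond the vertical limits of 1.5. The 32 members (large symbols) lie in the bright part, and of the 11 past the threshold (filled) 10 are below 0 and Hc is above.

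The promoters of 3 called members are shown because they share a short recognition sequence of the hepatocyte factor HNF1 while their transcripts moved in different directions. The search covered the 250 bases before each RefSeq start in GRCm38.p6, on both strands, with 28 windows for 27 of the 34 genes. The motif GTTAAT stood in 8 member windows (28.6%), against 6.43% of all 32851 windows. It was found in 3 of 9 called genes (C4bp, Hc and Vtn) and in 5 of 18 genes that were not called or not measured (C8a, C8b, F13b, Fga and Fgb). Capitals mark GTTAAT or its reverse complement, 64, 74 and 112 bases before the start in this order, and each sequence reads 5′ to 3′ on the strand of its gene.
C4bp, chr1:130661619-130661868, minus strand: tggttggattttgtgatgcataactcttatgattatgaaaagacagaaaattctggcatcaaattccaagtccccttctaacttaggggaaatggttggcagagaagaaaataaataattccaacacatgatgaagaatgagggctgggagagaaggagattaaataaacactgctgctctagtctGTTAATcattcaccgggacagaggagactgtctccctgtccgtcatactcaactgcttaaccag
Hc, chr2:35061413-35061662, minus strand: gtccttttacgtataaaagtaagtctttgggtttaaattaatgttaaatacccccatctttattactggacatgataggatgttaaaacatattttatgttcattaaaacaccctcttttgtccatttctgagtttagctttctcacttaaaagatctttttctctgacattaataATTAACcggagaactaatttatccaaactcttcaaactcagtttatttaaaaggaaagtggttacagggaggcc
Vtn, chr11:78498870-78499119, plus strand: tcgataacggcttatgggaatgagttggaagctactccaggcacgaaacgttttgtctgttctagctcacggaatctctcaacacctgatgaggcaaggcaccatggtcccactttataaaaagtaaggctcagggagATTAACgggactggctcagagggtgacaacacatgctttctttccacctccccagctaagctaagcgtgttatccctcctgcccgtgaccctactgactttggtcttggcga
The core CACGTG of the site that TFEB binds was in none of the 28 member windows (0 of 28), against 6.02% of all windows. ATTGAT or ATCGAT, cores of the site of Onecut1, were in 4 member windows (14.3%), those of C8a, F12, F2 and F9, against 7.40% of all windows. The 3 printed windows hold neither of these other motifs. These matches describe letters in the windows and not bound sites.

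The contact system, which starts clotting on charged surfaces and releases bradykinin, held the largest change of the coagulation genes. Klkb1, for the protease prekallikrein, gave 11.70, 11.69 and 11.69 in TFEB-injected livers, against 12.04, 12.09 and 12.06 in not-injected livers. The groups stood well apart, and the TFEB-injected values had an SD of 0.01. The log2 change was -0.37 ± 0.04 (SE), or 1.29 times lower (95% confidence interval -0.47 to -0.27 on the log2 scale; limma, adjusted p = 0.00134), and the adjusted p was at most 0.0120 over the alternatives. F12, for the protease that prekallikrein activates in return, gave 11.60, 11.55 and 11.51 in TFEB-injected livers, against 11.81, 11.79 and 11.75 in not-injected livers. It fell without overlap by 0.23 ± 0.05 on the log2 scale (adjusted p = 0.0139), a call lost without TFEB-injected replicate 2 or without not-injected replicate 1 or 2 (highest adjusted p = 0.0625).

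The other contact genes did not follow. Kng1, for the kininogen that carries prekallikrein and holds bradykinin, averaged 13.92 ± 0.04 in TFEB-injected livers and 13.83 ± 0.02 in not-injected livers (SD, n = 3 each; log2 change 0.09 ± 0.04 SE, adjusted p = 0.200). A further Kng1 probe set pointed the other way (-0.09). F11, for the protease next in the cascade, averaged 10.39 ± 0.09 in TFEB-injected livers and 10.44 ± 0.02 in not-injected livers (log2 change -0.05 ± 0.06 SE, adjusted p = 0.579). F11 and Klkb1 are neighbours on chromosome 8 in GRCm38.p6, with 0 protein-coding genes between them, and are known as products of a gene duplication. Within arrays the change of Klkb1 was lower than that of F11 by 0.32 log2 units and lower than that of Kng1 by 0.46. In both pairs the 3 TFEB-injected arrays lay apart from the 3 not-injected ones, with an exact two-sided permutation p of 0.10, the smallest that 3 against 3 arrays can give. Of 8 such pairs, taken after their values were seen, 5 reached this p (0.16 after Benjamini-Hochberg adjustment over the 8). All TFEB-injected levels of Kng1 lay above the not-injected ones, so for Klkb1 and Kng1 the p was fixed by the separate levels of both genes.

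The vitamin K-dependent proteins are carboxylated on glutamates so that they bind calcium and membranes. Of 6 measured, 2 fell, 0 rose and 4 were not called, with a median log2 change of -0.13. The share called, 33.3%, is near the 33.0% of genes at or above the level of the lowest member. F7, whose product starts the extrinsic route with tissue factor, gave 11.08, 11.14 and 11.16 in TFEB-injected livers, against 11.31, 11.37 and 11.38 in not-injected livers. All TFEB-injected values lay below all others. The log2 change of -0.23 ± 0.05 (SE; adjusted p = 0.0153) was no longer called without TFEB-injected replicate 2 or without not-injected replicate 2 or 3 (highest adjusted p = 0.0603).

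Proc, for the anticoagulant protease protein C, gave 12.63, 12.59 and 12.55 in TFEB-injected livers, against 12.76, 12.80 and 12.76 in not-injected livers. Its groups did not overlap either, and the log2 change was -0.19 ± 0.05 (SE; adjusted p = 0.0297). This call was lost without TFEB-injected replicate 2 or 3 and without any not-injected array (highest adjusted p = 0.102). F10, for the protease that makes thrombin, lay just beyond the threshold, with a mean of 11.80 ± 0.04 in TFEB-injected livers and 11.97 ± 0.03 in not-injected livers (SD, n = 3 each) and no overlap (log2 change -0.16 ± 0.05 SE; adjusted p = 0.0514). F10 was called with the mean of its probe sets, after median centring, without genes below the median level and with a trended robust prior. It has 3 probe sets, all lower in TFEB-injected livers, and the dimmest of them changed by -0.28 ± 0.05 (adjusted p = 0.00904 over all probe sets). F7 and F10 are neighbours on chromosome 8, and their changes differed by -0.07 (exact permutation p = 0.40).

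The remaining vitamin K-dependent genes were not called. F2, for prothrombin, gave 13.70, 13.67 and 13.68 in TFEB-injected livers, against 13.78, 13.78 and 13.79 in not-injected livers. The groups were apart, but the log2 change was small, -0.10 ± 0.04 (SE; adjusted p = 0.152). F9, the gene deficient in haemophilia B, averaged 12.11 ± 0.02 in TFEB-injected livers and 12.13 ± 0.01 in not-injected livers, a log2 change with a 95% confidence interval of -0.12 to 0.08. Pros1, for protein S, the cofactor of protein C, averaged 9.46 ± 0.06 in TFEB-injected livers and 9.37 ± 0.03 in not-injected livers (log2 change 0.09 ± 0.05 SE; adjusted p = 0.270).

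Fibrinogen, the most abundant clotting protein, is built of alpha, beta and gamma chains from neighbouring genes on chromosome 3. Fgg gave 14.48, 14.44 and 14.42 in TFEB-injected livers, against 14.40, 14.42 and 14.37 in not-injected livers. Fgb gave 14.35, 14.32 and 14.28 in TFEB-injected livers, against 14.30, 14.32 and 14.29 in not-injected livers. Fga gave 13.69, 13.65 and 13.58 in TFEB-injected livers, against 13.63, 13.61 and 13.62 in not-injected livers. The groups of Fga and Fgb overlapped, and those of Fgg were apart by less than 0.05. Log2 changes were 0.02, 0.01 and 0.05 for Fga, Fgb and Fgg, with 95% confidence intervals of -0.09 to 0.13, -0.09 to 0.12 and -0.05 to 0.15 (adjusted p = 0.843, 0.898 and 0.494). None of these intervals reached the change of Klkb1, and the levels lie near the upper end of the array scale.

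F5 and F13b, a cofactor and a carrier subunit, both pointed upward without a call. F5, for the cofactor of factor X, gave 12.41, 12.33 and 12.41 in TFEB-injected livers, against 12.24, 12.27 and 12.20 in not-injected livers. The groups did not overlap (log2 change 0.15 ± 0.05 SE; adjusted p = 0.0753), and a further probe set gave 0.13. F13b, for the subunit that carries the fibrin-crosslinking factor XIII, averaged 12.23 ± 0.02 in TFEB-injected livers and 12.15 ± 0.02 in not-injected livers (log2 change 0.08 ± 0.04 SE; adjusted p = 0.240).

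In fibrinolysis 2 of 3 measured genes fell, with a median log2 change of -0.17. The share of 66.7% rests on 3 genes only, against 15.3% lower among genes at or above the level of the lowest member. Plg, for plasminogen, the precursor of plasmin, gave 13.89, 13.89 and 13.93 in TFEB-injected livers, against 13.94, 13.98 and 13.93 in not-injected livers. Its groups overlapped (log2 change -0.05 ± 0.04 SE; adjusted p = 0.489). Hrg, for a histidine-rich glycoprotein that binds plasminogen and heparin, gave 13.08, 13.08 and 13.06 in TFEB-injected livers, against 13.22, 13.28 and 13.23 in not-injected livers. Vtn, for vitronectin, which holds the inhibitor of plasminogen activators and also blocks the membrane attack complex, gave 13.52, 13.52 and 13.54 in TFEB-injected livers, against 13.66, 13.67 and 13.76 in not-injected livers. Both fell without overlap, each by 0.17 on the log2 scale (SE 0.04 and 0.05; adjusted p = 0.0346 and 0.0448). Both calls were lost whichever of the 6 arrays was removed, with an adjusted p as high as 0.115 for Hrg and 0.140 for Vtn, and after cyclic loess normalisation.

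The lectin pathway has soluble receptors for microbial sugars and the proteases they activate. Mbl2, for mannose-binding lectin C, gave 13.12, 13.17 and 13.24 in TFEB-injected livers, against 13.20, 13.16 and 13.23 in not-injected livers, with overlap (log2 change -0.02 ± 0.05 SE; adjusted p = 0.803). Mbl1, for the related lectin A of mouse, averaged 11.98 ± 0.06 in TFEB-injected livers and 11.90 ± 0.01 in not-injected livers (log2 change 0.08 ± 0.05 SE; adjusted p = 0.297). Masp1, whose transcripts encode proteases of the lectin complexes, fell, with 11.001, 10.992 and 11.070 in TFEB-injected livers, against 11.230, 11.231 and 11.164 in not-injected livers (log2 change -0.19 ± 0.05 SE; adjusted p = 0.0341). Removing any array but TFEB-injected replicate 3 ended the call, with an adjusted p as high as 0.131. Masp1 has 5 probe sets with log2 changes of -0.19, -0.17, -0.05, 0.01 and 0.11, and with their mean the adjusted p was 0.443. Masp2, for the protease that cleaves C4 and C2, averaged 9.95 ± 0.11 in TFEB-injected livers and 10.06 ± 0.07 in not-injected livers (log2 change -0.12 ± 0.07 SE; adjusted p = 0.292).

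Among the members C2, Cfb, Cfi and C4bp, which activate or control complement, only C4bp was called. Its product binds C4b and assists factor I, which restrains the classical and lectin routes. C4bp gave 12.58, 12.57 and 12.54 in TFEB-injected livers, against 12.92, 12.94 and 12.91 in not-injected livers. The groups were separated by several times their spread, and the log2 change was -0.36 ± 0.04 (SE), or 1.28 times lower (95% confidence interval -0.46 to -0.26; adjusted p = 0.00150, at most 0.0124 over the alternatives). Cfi, for factor I itself, averaged 13.56 ± 0.01 in TFEB-injected livers and 13.47 ± 0.01 in not-injected livers. Cfb, for factor B of the alternative loop, averaged 11.74 ± 0.01 in TFEB-injected livers and 11.82 ± 0.01 in not-injected livers. Both sets of levels were apart between groups by less than 0.10, with log2 changes of 0.08 ± 0.04 and -0.09 ± 0.04 (SE; adjusted p = 0.214 and 0.195). C2, the neighbour of Cfb on chromosome 17 and the protease of the classical convertase, averaged 10.50 ± 0.06 in TFEB-injected livers and 10.48 ± 0.06 in not-injected livers (adjusted p = 0.822).

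The 6 measured genes of the membrane attack complex moved apart: 1 rose, 2 fell and 3 were not called. The share called was 50%, against 33.0% of genes at or above the level of the lowest member, and rests on 6 genes only. Hc, for C5, whose cleavage starts the complex, gave 13.41, 13.42 and 13.41 in TFEB-injected livers, against 13.15, 13.16 and 13.11 in not-injected livers. It was the only called member with higher levels in TFEB-injected livers (log2 change 0.28 ± 0.04 SE, or 1.21-fold; 95% confidence interval 0.18 to 0.38; adjusted p = 0.00437, at most 0.0282 over the alternatives). C6, for the protein that first joins cleaved C5, gave 10.95, 10.81 and 10.73 in TFEB-injected livers, against 11.17, 11.23 and 11.17 in not-injected livers. C6 fell by 0.36 ± 0.07 on the log2 scale, or 1.28 times (adjusted p = 0.00909, at most 0.0438 over the alternatives), and its TFEB-injected values were spread more widely (SD 0.11, against 0.03 in not-injected livers). Within arrays the change of C6 was lower than that of Hc by 0.64 log2 units (exact permutation p = 0.10, the smallest possible). C6 lay below and Hc above all not-injected values in every TFEB-injected array. This p was therefore fixed by the separate levels of both genes and adds nothing to them.

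C8 is assembled from alpha, beta and gamma chains, of which the gamma chain is a lipocalin unrelated to the pore-forming others. C8g gave 12.87, 12.79 and 12.66 in TFEB-injected livers, against 13.19, 13.21 and 13.22 in not-injected livers. This was the largest change of any member in either direction, -0.43 ± 0.06 (SE) on the log2 scale or 1.35 times lower (95% confidence interval -0.58 to -0.29; adjusted p = 0.00336, at most 0.0198 over the alternatives). C8a gave 13.21, 13.19 and 13.14 in TFEB-injected livers, against 13.09, 13.11 and 13.13 in not-injected livers. C8b gave 11.83, 11.80 and 11.70 in TFEB-injected livers, against 11.68, 11.73 and 11.67 in not-injected livers. Neither passed (log2 changes 0.07 ± 0.04 and 0.09 ± 0.05 SE; adjusted p = 0.339 and 0.311), and these 2 neighbours on chromosome 4 differed in change by -0.02, C8a minus C8b (exact permutation p = 0.60). The change of C8g was lower than that of C8a by 0.50 and lower than that of C8b by 0.52, with no overlap of the arrays in either difference (exact permutation p = 0.10 each, the smallest possible). All TFEB-injected levels of C8a lay above the not-injected ones, so in that pair the p was fixed by the separate levels of both genes.

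C9, which polymerises into the pore, gave 13.81, 13.75 and 13.75 in TFEB-injected livers, against 13.80, 13.84 and 13.82 in not-injected livers. Its groups overlapped, with a log2 change of -0.05 ± 0.04 (SE; adjusted p = 0.488).

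**Figure D3:**
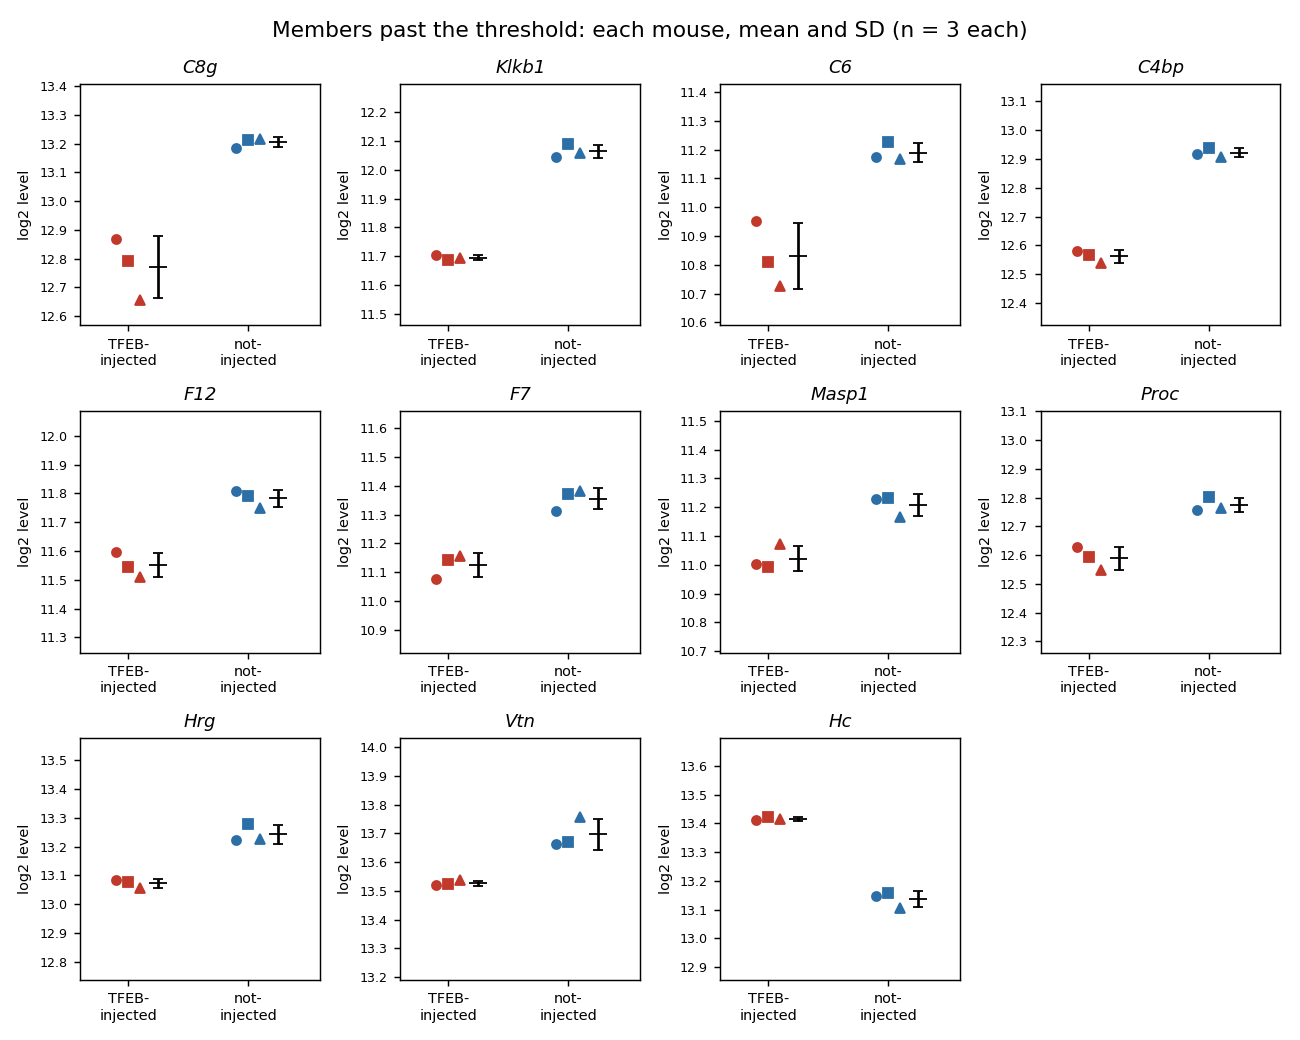
Each panel shows the log2 level of 1 called gene in the 3 TFEB-injected mice (left) and the 3 not-injected mice (right), with the mean and SD beside them and all vertical axes of the same length. Panels run from C8g, the largest fall, to Hc, the only rise, and in every panel the groups do not overlap.

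Other genes of these pathways were read from lists of 63 genes, of which 48 were measured. Of these 9 fell (18.75%) and 5 rose (10.4%), against 7.92% and 9.99% of all genes. Among 14 further coagulation genes 6 fell (42.9%) and 0 rose, with a median log2 change of -0.15. They included Serpind1, for the thrombin inhibitor heparin cofactor II (-0.21 ± 0.04 SE, adjusted p = 0.0150), and the thrombin receptor gene F2r (-0.26 ± 0.05, adjusted p = 0.0152). Serpind1 lost its call without TFEB-injected replicate 2 or not-injected replicate 1 or 2, and with the replicate number as a block. F2r lost its call without TFEB-injected replicate 2 or not-injected replicate 2. Serpinc1, for antithrombin, and F8, for the cofactor of factor IX, gave log2 changes of -0.04 and -0.02 and were not called; both were named after their values were seen. Of 8 further fibrinolysis genes 2 fell (25%) and 0 rose. Serpinf2, for the main plasmin inhibitor, gave 12.13, 12.16 and 12.20 in TFEB-injected livers, against 12.42, 12.48 and 12.42 in not-injected livers, a fall of 0.28 ± 0.05 on the log2 scale (adjusted p = 0.00576) that kept its call under all alternatives. The clearance receptor gene Lrp1 fell by 0.24 ± 0.05 (adjusted p = 0.0137). Its call was lost without TFEB-injected replicate 2 or not-injected replicate 2 or 3, and with the replicate number as a block.

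Of 18 further complement genes 5 rose (27.8%) and 1 fell (5.56%), against 9.99% and 7.92% of all genes. The risers were C1qa, C1qb and C1qc, for the chains of C1q, Cfp, for properdin, and Vsig4, for a complement receptor of Kupffer cells, with log2 changes from 0.40 to 0.51. The call of C1qb was lost without TFEB-injected replicate 2 or any not-injected array (highest adjusted p = 0.0814), and that of C1qc without TFEB-injected replicate 2 or not-injected replicate 2 or 3 (highest adjusted p = 0.0624). Vsig4 rose by 0.50 ± 0.06 (adjusted p = 0.00141) and Cfp by 0.41 ± 0.07 (adjusted p = 0.00606), whereas C1ra, for the protease bound to C1q, fell by 0.24 ± 0.05 (adjusted p = 0.0172). The call of C1ra was lost without TFEB-injected replicate 2 or any not-injected array, and with the replicate number as a block. C1q and Vsig4 are themselves markers of macrophages. Of 14 macrophage and Kupffer cell markers 10 rose (71.4%) and 0 fell, against 9.99% and 7.92% of all genes. Cd5l had the smallest p of these markers (0.63 ± 0.05 SE; adjusted p = 0.000237). C1qa, C1qb, C1qc and Vsig4 are among these 14, so neither this count nor the sum of the markers is independent of them. The summed linear level of these 14 was 14495 to 16258 in TFEB-injected livers, against 10776 to 11035 in not-injected livers, with no marker at 0, and its part in the C1q values was not tested. Of 8 genes for the vitamin K cycle and for the processing and export of factors limma called 0, with 2 at an unadjusted p under 0.05. These were Lman1, for the cargo receptor of factors V and VIII (-0.29 ± 0.08 SE; adjusted p = 0.0533), and Hpn, for the protease hepsin (-0.12 ± 0.05; adjusted p = 0.134).

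**Figure D4:**
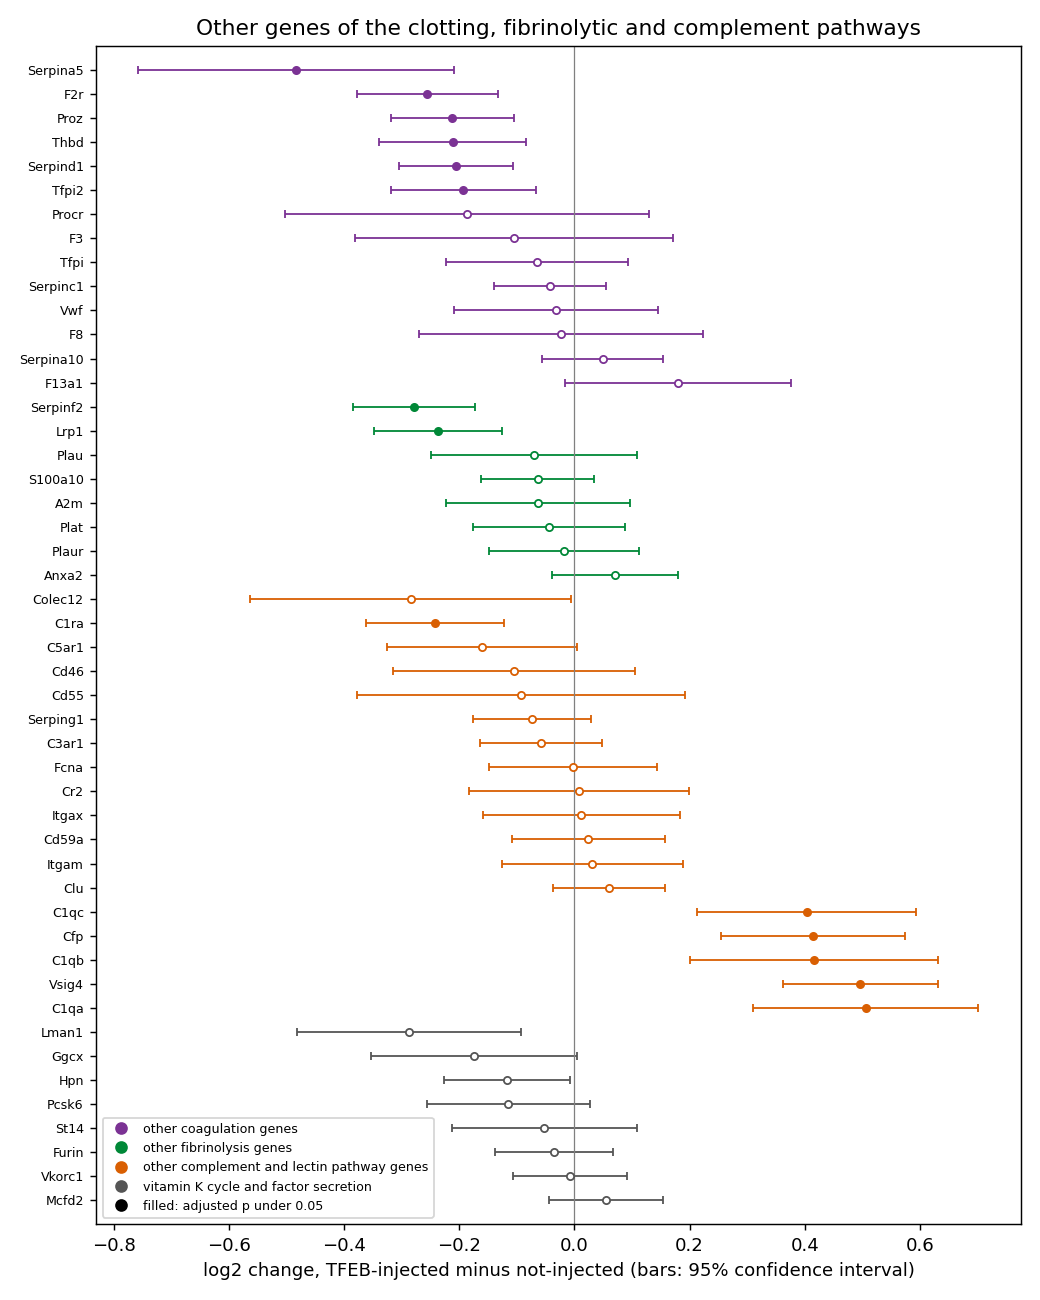
Log2 changes (TFEB-injected minus not-injected, with 95% confidence intervals) are shown for the 48 other pathway genes, coloured by list and filled where called. The C1q chains, Cfp and Vsig4 lie to the right of 0 and the called coagulation and fibrinolysis genes to the left.

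Some acute phase genes differed widely among the TFEB-injected mice and others did not. Saa2, for a serum amyloid protein, gave 9.97, 13.37 and 13.95 in TFEB-injected livers, against 9.11, 9.02 and 9.18 in not-injected livers. Lcn2, for lipocalin 2, gave 8.03, 11.85 and 12.77 in TFEB-injected livers, against 7.76, 7.61 and 7.66 in not-injected livers. Replicates 2 and 3 were thus far above the controls and replicate 1 was above them by much less; both genes were named after their values were seen. Saa2 passed (log2 change 3.32 ± 0.91 SE; adjusted p = 0.0450), a call kept only without TFEB-injected replicate 1 among the 6 removals, and Lcn2 did not (adjusted p = 0.0823). Crp lay close together in the TFEB-injected mice (13.51, 13.57 and 13.53, against 13.13, 13.10 and 13.09 in not-injected livers). Fgl1, for a fibrinogen-like protein of hepatocytes, rose by 0.94 ± 0.16 (adjusted p = 0.00662) and Crp by 0.43 ± 0.04 (adjusted p = 0.000809). Steap4 (-0.86 ± 0.07) and Saa4 (-0.44 ± 0.06) fell (adjusted p = 0.000349 and 0.00187). Of 21 acute phase genes 7 rose (33.3%) and 4 fell (19.0%), against 9.99% and 7.92% of all genes. Among the 2623 genes at or above the level of the lowest member 17.7% rose and 15.3% fell. Among TFEB-injected mice C8g and C6 were lowest in replicate 3 (12.66 and 10.73), while Hc had an SD of 0.01. Whether the acute phase has a part in the values of the members was not tested.

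**Figure D5:**
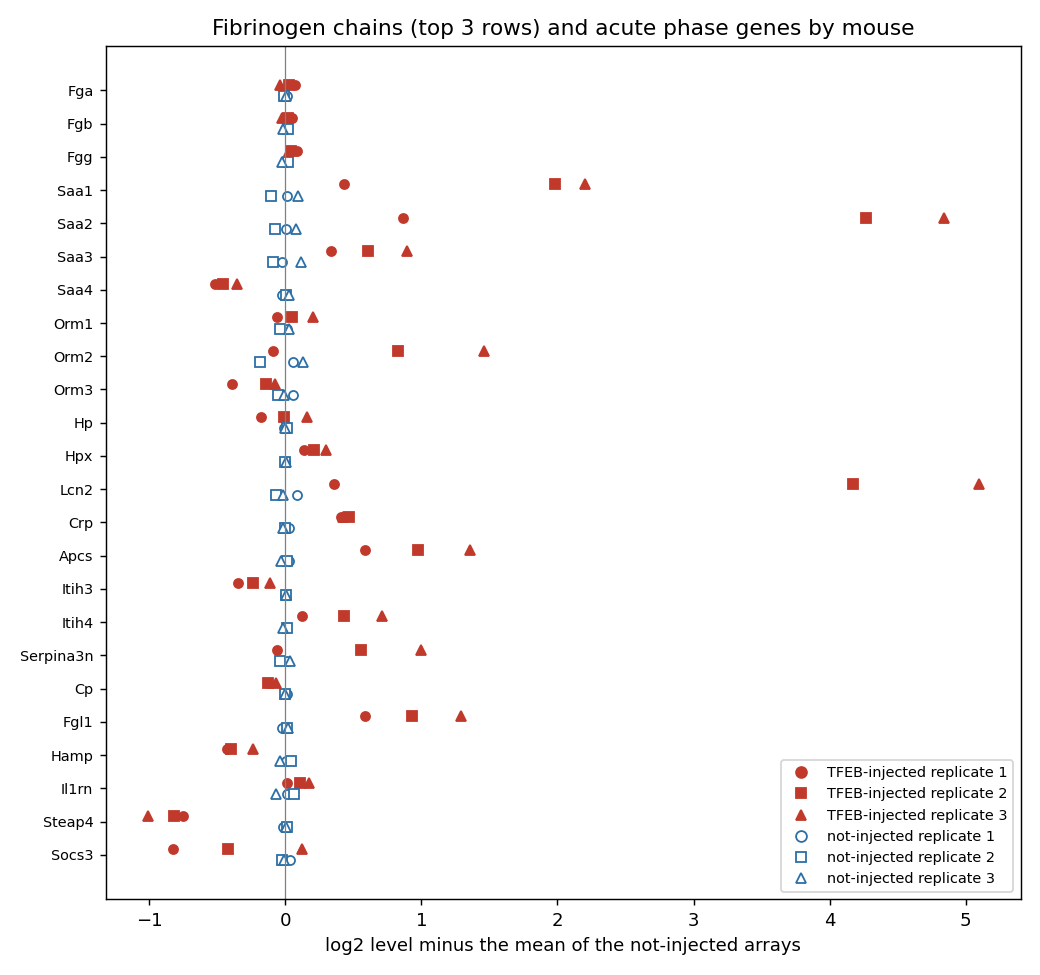
Rows are the 3 fibrinogen chains and 21 acute phase genes, with each mouse's log2 level minus the mean of the not-injected arrays. Saa1, Saa2 and Lcn2 are far to the right in TFEB-injected replicates 2 and 3 and much nearer the controls in replicate 1, whereas Fga, Fgb and Fgg stay near 0 in all mice.

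Other liver-secreted proteins gave counts of the same kind. Of 17 measured, 5 fell (29.4%) and 1 rose (5.88%), against 7.92% and 9.99% of all genes, the members having 31.3% lower. Among the 2623 genes at or above the level of the lowest member 15.3% fell and 17.7% rose. Fetub, for a fetuin (-0.38 ± 0.05 SE; adjusted p = 0.00239), and Itih1, for an inter-alpha-trypsin inhibitor chain (-0.28 ± 0.05; adjusted p = 0.00716), fell, and Agt, for angiotensinogen, rose (0.48 ± 0.09; adjusted p = 0.00982). Of 12 hepatocyte markers 3 fell (25%) and 0 rose, against 7.92% and 9.99% of all genes and 15.3% and 17.7% of those 2623 genes. The falls were led by Pck1 (-0.68 ± 0.05; adjusted p = 0.000159) and Tat (-0.49 ± 0.05; adjusted p = 0.000617). The summed linear level of the 12 markers was 179950 to 185976 in TFEB-injected livers, against 191812 to 192671 in not-injected livers. The part of this sum in the falls of members was not tested.

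Of 13 measured genes for liver transcription factors known to bind clotting or complement promoters, 4 fell (30.8%) and 0 rose. Over all genes 7.92% fell and 9.99% rose. Onecut1 gave 7.93, 7.78 and 7.84 in TFEB-injected livers, against 9.63, 9.59 and 9.61 in not-injected livers (log2 change -1.76 ± 0.05 SE; adjusted p = 7.79e-06). Cebpd changed by -0.83 ± 0.06 (adjusted p = 0.000258). Hnf4a and Cebpa, named after their values were seen, gave -0.11 ± 0.06 and -0.03 ± 0.08 and were not called. Whether these factors bear on the members was not tested.

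Markers of vessel and blood cells were read beside these values. Of 15 endothelial markers Stab2 (1.42 ± 0.05 SE; adjusted p = 1.68e-05) and Lyve1 (0.89 ± 0.07; adjusted p = 0.000270) rose and Thbd, for the cofactor of protein C activation, fell (-0.21 ± 0.05; adjusted p = 0.0356, a call kept only without TFEB-injected replicate 2 among the 6 removals). Over the 15 markers 13.3% rose and 6.67% fell, against 9.99% and 7.92% of all genes. Summed endothelial markers were 5954 to 7286 in TFEB-injected livers, against 5583 to 5927 in not-injected livers. This sum includes Stab2 and Lyve1, whereas the median log2 change of the 15 markers was -0.016, with 9 estimates below 0. Of 7 platelet markers limma called 0, with 2 at an unadjusted p under 0.05. Of these Ppbp gave 0.59 ± 0.17 (SE; adjusted p = 0.0514) and Gp1bb -0.21 ± 0.07 (adjusted p = 0.0831). Of 9 neutrophil markers S100a8 was called (0.25 ± 0.07, adjusted p = 0.0499). This call was lost without any 1 array, after median centring and with a trended robust prior. Summed platelet markers were 700.4 to 813.8 in TFEB-injected livers, against 731.8 to 808.8 in not-injected livers. Summed neutrophil markers were 482.2 to 519.1 in TFEB-injected livers, against 492.7 to 525.1 in not-injected livers. The neutrophil markers were dim, S100a8 averaging 5.10 in TFEB-injected and 4.85 in not-injected livers, against array medians of 6.92 to 6.93. At such levels neither the call nor this sum can show whether neutrophils changed.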

How the data were processed

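Total liver RNA of 6 mice was hybridised to Affymetrix arrays as biotin-labelled cRNA, per the labels' protocols. The deposited values are log2 expression levels per probe set, made by the authors with RMA in the affy package, per the submitters' processing notes, which give no version. RMA makes the array distributions equal, so changes of total RNA are not seen, and bright probe sets near the upper end can understate changes.

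The annotation pairs 20393 of 22690 probe sets with a single symbol, 691 with more than 1 and leaves 1606 unnamed. After controls were removed, 20380 probe sets of 12393 genes remained. TFEB-injected minus not-injected was fitted with limma 3.58.1 in R 4.3.3 (lmFit, eBayes), and p-values were adjusted across the 12393 genes by Benjamini-Hochberg, with calls at 0.05. Confidence intervals are at 95%. The fit was tested on simulated data, in which 200 genes were changed by 0.5 or by 1 log2 unit. It recovered 75.5% and 97.5% of them. Smaller changes were not simulated, and the largest change of a member was -0.43, so the power for the members is not known. Only 3 arrays per group limit the precision.

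Every member is named; of each other list the 2 called genes with the smallest p in each direction were named, or, if none passed, its top gene by p. The members and lists were chosen with earlier results of these data known. Promoters are RefSeq sequences of GRCm38.p6. Neighbouring genes are from the RefSeq table of the same assembly. Alternatives were averaging all probe sets of a gene, no _s_at or _x_at probe sets, median centring, cyclic loess, removal of genes dimmer than the median gene, a trended and robust eBayes prior, the replicate number as a block, and leaving out each array. Plots were made in Python 3.11.15 (matplotlib 3.10.9).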

Additional observations from a re-analysis of the deposited data

How the results depend on the processing

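Over 13 alternatives, 415 values of the 32 members were recomputed: 370 stayed on the same side of the threshold, 35 lost and 10 gained a call, and 0 called changes turned. The uncalled changes of Fga, Fgb, Mbl2 and C2 took either sign over the alternatives. The count of 10 lower members was 12 without genes below the median level and with an intensity trend and robust prior, where F2 and F10 joined. It was 6 with the replicate number as a block and 4 to 7 over the fits with 1 array left out: 7, 4 and 7 without TFEB-injected replicates 1, 2 and 3 and 5, 4 and 5 without not-injected replicates 1, 2 and 3. The count of 1 higher member was 2 without genes below the median level and 4 with an intensity trend and robust prior, where F5, Cfi and Kng1 joined Hc. Other pathway genes gave 2 lower with the replicate block, against 9; with 1 array left out they gave 3 to 5 higher, against 5, and 1 to 8 lower. Same-numbered arrays did not deviate together (r = 0.01, -0.13 and -0.11), so the numbers are not taken to pair the mice. Over all genes 2219 calls became 1533 with the block and 1229, 1271, 1345 and 1448 without TFEB-injected replicate 2 and not-injected replicates 1, 2 and 3. The median log2 change of all members was -0.082 after median centring and -0.019 after cyclic loess, and that of coagulation was -0.048 after median centring. With 1 array left out the medians were -0.059 to -0.030 for all members, -0.025 to -0.0095 for coagulation, -0.11 to -0.026 for the lectin pathway and -0.043 to 0.0018 for complement. That of fibrinolysis was -0.20, -0.14 and -0.11 with median centring, cyclic loess and no _s_at or _x_at probe sets (Hrg is then not measured), and -0.18 to -0.14 with 1 array left out. The replicate block cost Proc, Hrg, Vtn and Masp1 their calls among the members. The causes of these shifts were not tested; fewer arrays lower the power by construction.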
